A study of Bos taurus with 23 samples.

Results

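The genes described here are the 200 whose transcript abundance in peripheral white blood cells (PWBC) varied least over 23 beef heifers. They were taken from 6184 candidate genes, which are the genes retained in both stations' filtered tables, apart from the genes that the study listed as differentially expressed, with a mean of 20 to 200 CPM (the read pair count scaled to a common library total) over the 23 libraries. The 200 candidates with the lowest standard deviation (SD) of log2(CPM + 1) over all 23 libraries were kept, of 10422 genes retained in both stations and 24616 genes counted in all. The values that chose these genes are the same CPM that are described below, so their small spread, and the small differences between groups that follow from it, are a description and not a test.

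Some transcripts are held to stay at a nearly even level whatever the state of the cell, and genes behind basic work such as protein synthesis, RNA processing or energy supply are often named as examples. Such genes are used as internal standards, since an amount of RNA is usually read relative to something that is taken to stay level. Blood is a hard tissue for this purpose, because neutrophils, lymphocytes, monocytes and platelets carry different transcripts and their proportions change with stress, infection and hormones. In these bulk samples a change in the share of a cell type and a change in the RNA per cell cannot be told apart.

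The heifers were Angus-Simmental crossbreds at their first breeding season, all pubertal, whose estrous cycles were synchronized with GnRH, a progesterone insert and prostaglandin before fixed-time artificial insemination (AI). Blood was drawn from the jugular vein right after insemination, so every sample precedes the outcome by which it is grouped. Station A gave 6 AI-pregnant heifers and 5 NB-pregnant heifers, which had not conceived to AI and became pregnant by natural breeding (NB) later in the season, and station B gave 6 AI-pregnant and 6 non-pregnant heifers. Each heifer was 1 library and 1 independent replicate, and the samples were the whole white cell pellet, with no cell type separated. The deposited tables give Ensembl identifiers and do not pair them with names, and the RefSeq gene table used here matched 0 of them, so the genes are given by identifier, no role is stated for any of them, and the PWBC label was not checked against marker genes.

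Total counts ran from 4826003 to 20434401 read pairs per library, of which 71731 to 309778 fell on the 200 genes. The libraries were of 3 kinds. In 6 libraries of station A and 3 of station B (AI-pregnant heifer 3 and non-pregnant heifers 1 and 4), 12166 to 12456 genes exceeded 1 CPM. In 5 libraries of station A (AI-pregnant heifers 4 and 5 and NB-pregnant heifers 1, 4 and 5) the 100 most abundant genes held 24.1% to 29.4% of the counts, against 13.1% to 18.4% in the other 6, and these 5 are called top-heavy here. The other 9 libraries of station B had 9970 to 10905 genes above 1 CPM. The 3 libraries of station B thus stood apart from the rest of their station. The list of 200 genes and the overlap of the lists chosen by station are given with and without them. So are the main counts of called genes in station B. Fold changes within station B and the values of single genes are given with all of its heifers.

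The SD of the 200 genes ran from 0.121 to 0.284 on the log2 scale, with a median of 0.234, while the median of all candidates was 0.8997 and their highest value 3.63. For 145 of the 200 the highest heifer had less than 2 times the CPM of the lowest, and the median of this ratio was 1.85 (7.72 over the candidates). The limit fell within a continuous range. The last genes inside were ENSBTAG00000025617, ENSBTAG00000008109 and ENSBTAG00000046786 at SDs of 0.2827, 0.2835 and 0.2836. The first genes outside were ENSBTAG00000018406, ENSBTAG00000013930 and ENSBTAG00000027879 at 0.2846, 0.2856 and 0.2856.

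**Figure D1:**
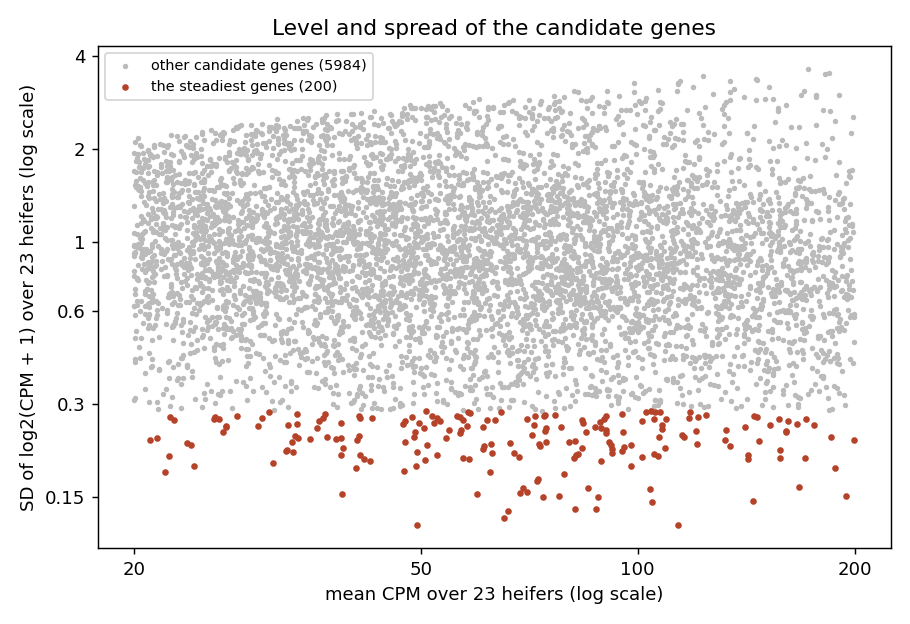
Mean CPM over the 23 heifers (horizontal, log scale) against the SD of log2(CPM + 1) over the same heifers (vertical, log scale), 1 point per candidate gene. The 200 steadiest genes lie below an SD of 0.284 and are spread over the whole range of levels, from 21.1 to 199 CPM.

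The steadiest gene was ENSBTAG00000009806, at a mean of 49.4 CPM and a coefficient of variation of 8.39% over the 23 heifers. The AI-pregnant heifers of station A had 43.7 to 56.2 CPM (median 47.8), and the 5 NB-pregnant heifers had 47.9, 46.7, 52.9, 48.5 and 39.0 CPM. In station B the AI-pregnant heifers had 47.3 to 55.0 CPM (median 49.8) and the non-pregnant heifers 47.0 to 55.8 CPM (median 50.05). The 4 groups overlapped, and the lowest library was the top-heavy NB-pregnant heifer 5 of station A. Counting error alone accounted for 34.9% of this gene's variance, the highest share of any of the 200.

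ENSBTAG00000001807 followed with an SD of 0.122 at a higher level, a mean of 114 CPM. Its values were 94.4 to 129 CPM (median 111) in station A AI-pregnant heifers and 116, 116, 114, 113 and 109 CPM in the NB-pregnant heifers. They were 102 to 140 CPM (median 116) in AI-pregnant and 102 to 123 CPM (median 112) in non-pregnant heifers of station B. The NB-pregnant heifers were the closest together (114 ± 2.79 CPM, SD, n = 5) and the AI-pregnant heifers of station B the widest apart (117 ± 13.996 CPM, SD, n = 6), and all groups overlapped.

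ENSBTAG00000047780 and ENSBTAG00000030956 lay at similar mean levels, 65.2 and 66.1 CPM, with SDs of 0.128 and 0.135. ENSBTAG00000047780 ranged from 55.4 CPM in non-pregnant heifer 2 to 77.8 CPM in non-pregnant heifer 5, both of station B, so its extremes lay within 1 group. ENSBTAG00000030956 ranged from 54.3 CPM in station A NB-pregnant heifer 5 to 80.0 CPM in station B AI-pregnant heifer 6.

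ENSBTAG00000002697, ENSBTAG00000004571 and ENSBTAG00000004992 had means of 87.6, 81.9 and 88.2 CPM. ENSBTAG00000002697 lay between 75.1 and 98.4 CPM in all heifers but AI-pregnant heifer 6 of station B, which had 116 CPM. ENSBTAG00000004571 was the one of the 10 steadiest whose AI-pregnant groups did not overlap between stations. It had 73.5 to 82.8 CPM (median 76.3) in the AI-pregnant heifers of station A and 85.9 to 105 CPM (median 88.7) in those of station B, whereas the NB-pregnant heifers (68.4 to 84.7 CPM) and the non-pregnant heifers (73.3 to 86.1 CPM) overlapped. This split was in CPM without scaling factors. Under edgeR's scaling, described below, the log2 fold change of ENSBTAG00000004571 between these AI-pregnant groups was 0.05 ± 0.15 (SE). ENSBTAG00000004992 ran from 75.4 CPM in station A NB-pregnant heifer 5 to 113 CPM in station B AI-pregnant heifer 5.

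ENSBTAG00000010691 and ENSBTAG00000033983 had means of 105 and 144 CPM, the latter the highest CPM of the 10. ENSBTAG00000010691 ranged from 84.9 to 129 CPM and ENSBTAG00000033983 from 117 to 190 CPM, and in each a single AI-pregnant heifer of station A held the highest value. ENSBTAG00000002591, the last of the 10, was tight in station A (66.2 to 76.4 CPM, SD 0.069 on the log2 scale) and wider in station B (57.7 to 91.3 CPM, SD 0.190). Its lowest value, 57.7 CPM, came from AI-pregnant heifer 3 of station B, 1 of the 3 libraries that stood apart.

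**Figure D2:**
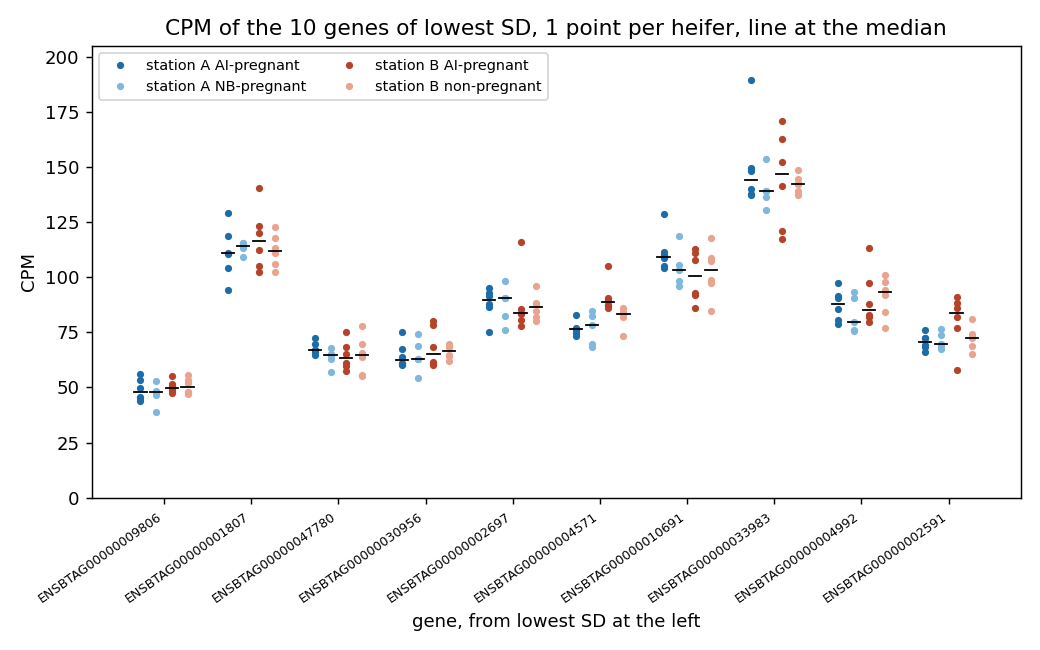
CPM (vertical, linear from 0) of the 10 genes of lowest SD (horizontal), 1 point per heifer coloured by group, with a line at each group's median. The points of each gene form 1 band. Among the AI-pregnant heifers those of ENSBTAG00000004571 are split by station in CPM without scaling factors (73.5 to 82.8 against 85.9 to 105 CPM).

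CPM is not corrected for gene length, so levels were compared between genes in FPKM, the deposited values per length and per library total. By CPM the most abundant of the 200 were ENSBTAG00000001790 (199 CPM, 150 to 266 over the heifers), ENSBTAG00000006250 (194.5 CPM, 159 to 229) and ENSBTAG00000015034 (188 CPM, 140 to 244). In FPKM these 3 stood at 69.0, 50.3 and 102, so the third was the highest per length. The least abundant by CPM were ENSBTAG00000002921 (21.1 CPM, 15.9 to 31.1), ENSBTAG00000003425 (21.5 CPM, 15.6 to 31.6) and ENSBTAG00000018667 (22.1 CPM, 17.8 to 27.7), at 9.98, 10.2 and 12.1 FPKM. Over all 200 the mean FPKM ran from 3.23 to 166 with a median of 31.5, close to the 27.5 of the candidates.

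The gene length implied by counts and FPKM was a property that the choice had not used. Its median was 2134 bases in the 200 genes (558 to 12129) and 2130 bases in the candidates. Short genes of under 1000 bases were 15 of the 200 (7.5%) and 718 of the candidates (11.6%), and long genes of over 5000 bases were 13 (6.5%) and 488 (7.89%). Counting error made up a median of 7.35% of the variance of the 200 genes (0.538% of the candidates'), and the lowest count of any of them in any library was 76 read pairs.

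The summed level of the 200 genes was a nearly constant share of each library, which follows from choosing them for steady CPM in these libraries. It was 1.41% to 1.72% of all counts, and the means of the groups were close. In station A the AI-pregnant heifers had 1.56% ± 0.0554 (SD, n = 6), and the NB-pregnant ones 1.52% ± 0.0343 (SD, n = 5). In station B the AI-pregnant heifers had 1.57% ± 0.104 (SD, n = 6), and the non-pregnant ones 1.53% ± 0.0721 (SD, n = 6). The highest shares were those of AI-pregnant heifers 5 and 6 of station B, at 1.72% and 1.67%, and the lowest that of non-pregnant heifer 2, at 1.41%, so the extremes lay in 1 station. Relative to its geometric mean the share varied from 0.912 to 1.11. The factors by which TMM (the trimmed mean of M values, edgeR's scaling) corrects library totals ran more widely, from 0.739 to 1.17, and DESeq2's size factors relative to library totals from 0.699 to 1.20. The narrower range of the share is not a test of these factors, since the genes were chosen on CPM without them. The 5 top-heavy libraries had the 5 lowest DESeq2 factors (0.699 to 0.803), while their shares of the 200 genes, 1.49% to 1.67%, lay inside the range of the others.

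**Figure D3:**
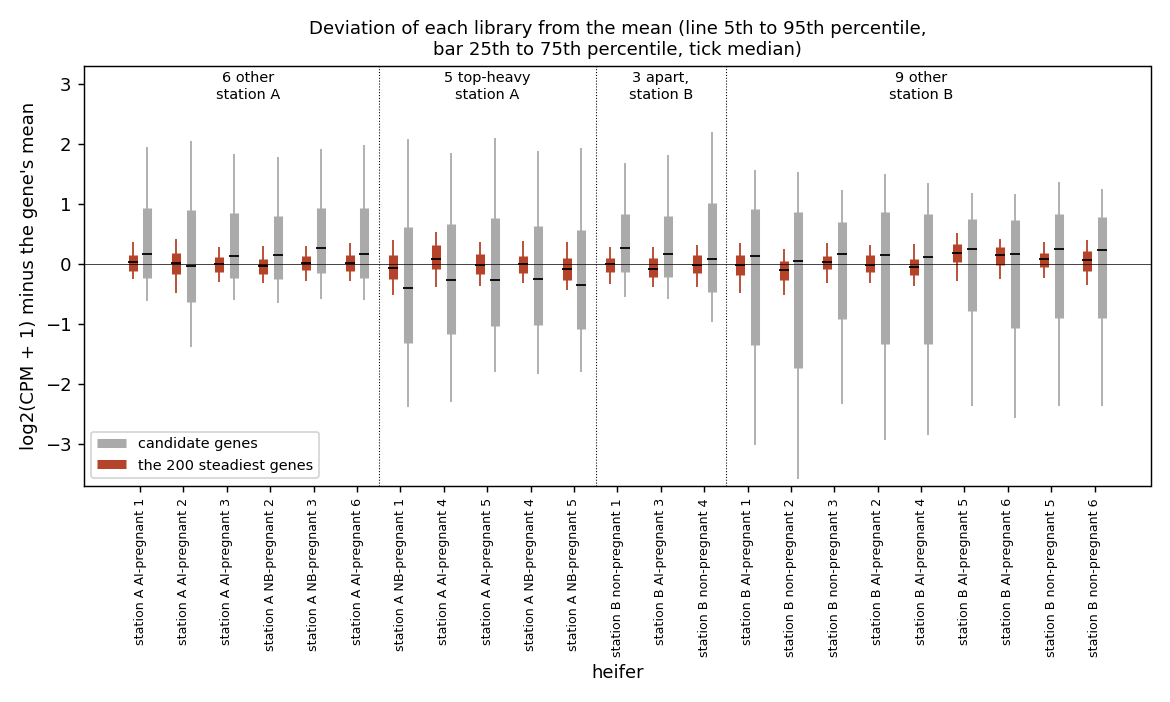
Deviation of log2(CPM + 1) from each gene's mean over the 23 heifers (vertical), by heifer (horizontal, ordered by kind of library), for the 200 steadiest genes and all candidates (line from the 5th to the 95th percentile, bar from the 25th to the 75th, tick at the median). The medians of the 200 genes stay between -0.11 and 0.17 in every library, and their bars span 0.221 to 0.403 where those of the candidates span 0.957 to 2.59.

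The 3 kinds of library separated the candidates far more than they separated the 200 genes, as the choice of low spread requires. Between the 3 libraries of station B that stood apart and the 9 others, the median absolute difference of mean log2(CPM + 1) was 0.189 in the 200 genes and 1.24 in the candidates, and 62.0% of the candidates but 0 of the 200 genes differed by more than 1 on the log2 scale. Between the 5 top-heavy libraries and the other 6 of station A these medians were 0.225 and 0.755. Between the 9 libraries of station B and the 6 of station A they were 0.200 and 1.28. The 3 libraries of station B and the 6 of station A were the closest, at 0.068 and 0.125.

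The 200 genes were not free of the library kinds. A component analysis of their centred log2(CPM + 1) put 24.5%, 21.4% and 14.5% of the variance on the first 3 components, against 80.9%, 13.9% and 1.0% in the candidates, so their remaining variation was spread over more directions. On the first component the 9 libraries with the most genes above 1 CPM (12166 or more) scored 0.139 or more and the other 14 scored -0.019 or less, without overlap. Pairs of the 200 genes seldom moved together over the heifers. Pearson's r exceeded 0.8 in 0.442% of their pairs and in 22.6% of the candidates' pairs. The choice of low spread used the same values and bears on both the components and the correlations. The correlations also share libraries and totals, and both are given as a description.

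Genes that were steady in 1 station were mostly other genes than those steady in the other. When the 200 candidates of lowest SD were chosen on the 11 heifers of station A and again on the 12 of station B, 21 genes were in both lists, which is 10.5% of each, where a list of 200 holds 3.23% of the candidates. All 21 were among the 200 chosen on all heifers, and they included all 10 of the steadiest. The station A list had a median SD of 0.130 in station A and of 0.561 in station B, where the median of all candidates was 0.636. The station B list had 0.177 in station B and 0.347 in station A, against 0.473 for the candidates. Of the station A list 44 genes, and of the station B list 74 genes, had an SD in the other station no higher than the highest of the 200 (0.284), as had 10.6% of the candidates in station B and 23.7% in station A. Over the 6184 candidates the SDs of the stations had a Pearson's r of 0.011 and a Spearman's rho of 0.025, a description across genes that share libraries. Without the 3 libraries of station B that stood apart, the station lists shared 13 genes.

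**Figure D4:**
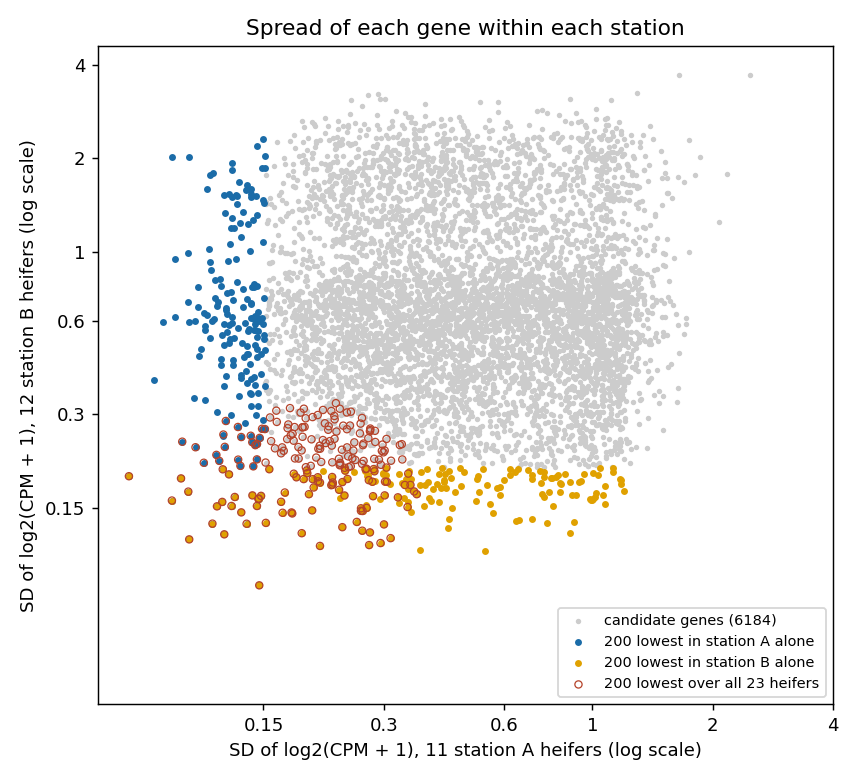
SD of log2(CPM + 1) over the 11 heifers of station A (horizontal, log scale) against the SD over the 12 heifers of station B (vertical, log scale), 1 point per candidate gene. The lists chosen in 1 station run along the left and lower edges and meet in 21 genes, and the 200 genes chosen on all heifers (open circles) fill the lower left corner.

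A split by outcome gave another picture. The 12 AI-pregnant heifers of both stations and the other 11 heifers each held libraries of all kinds. Of the 12, 4 were from the 6 other libraries of station A, 2 were top-heavy, 1 was among the 3 that stood apart and 5 were among the 9 others of station B, and of the 11 these numbers were 2, 3, 2 and 4. The lists of 200 chosen on each side of this split shared 123 genes (61.5% of each). The list chosen on the AI-pregnant heifers had a median SD of 0.231 in them and of 0.248 in the heifers that had not chosen it, where the candidates had 0.938. Each side also held heifers of both stations, and the part of library kind or station in the overlap was not tested. This split was added after the data were seen.

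The outcome comparisons ask whether transcript levels in PWBC at insemination differed with later pregnancy. No gene of any kind passed edgeR's quasi-likelihood test at a Benjamini-Hochberg adjusted p of 0.05 in station A (0 of 12128, 0%) or station B (0 of 10832, 0%). Among the 200 the smallest adjusted p of this test were 0.999 in station A and 0.874 in station B. At an unadjusted p under 0.05 station A had 101 genes (0.833%), 2 of them among the 200, and station B had 48 (0.443%), none of them among the 200. The study's own rule asks DESeq2 and the likelihood ratio test of edgeR each for an unadjusted P no higher than 0.01. The study set this P beside an empirical false discovery rate from randomized sample groups, and checked some called genes by qPCR. That rate was not recomputed here. By this rule station A had 18 called genes (0.148%) and station B had 6 (0.0554%), with 0 of the 200 in either. Without the 3 libraries of station B that stood apart, station B had 1 gene called by the quasi-likelihood test and 11 by the study's rule, again with 0 of the 200. The groups did not overlap in CPM for 18 genes in station A (0.148%) and 3 in station B (0.0277%), with 0 of the 200 in either. DESeq2's Wald test at an adjusted p of 0.05 gave 2 genes for station A, neither among the 200, and 0 for station B. Nothing is read from the members' counts, since a gene that differed strongly between groups could not have been chosen. The genes that the study listed as differentially expressed had also been left out of the candidates. The 0 by its rule over all heifers of a station was thus fixed by the choice.

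With TMM the log2 fold changes of the 200 genes, NB-pregnant over AI-pregnant, lay between -0.22 and 0.61 in station A with standard errors of 0.124 to 0.343. Under TMM 155 were above 0 and 45 below (median 0.10), but without scaling factors 71 were above and 129 below (median -0.05), so the direction of the list turned with the scaling. Over all 12128 genes the median moved likewise, from 0.01 with TMM to -0.12 without factors. In station B the fold changes, non-pregnant over AI-pregnant, lay between -0.32 and 0.24 with standard errors of 0.116 to 0.236, and 78 were above and 122 below 0 both with TMM and without factors. Within the 6 other libraries of station A the differences of mean log2(CPM + 1) ran from -0.34 to 0.42, and within the 5 top-heavy ones from -0.59 to 0.49. For 117 of the 200 genes the sign was the same in both. These differences are without scaling factors, and each kind of library held few heifers of each outcome. No count for the candidates is given, and nothing is read from the 117.

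Both genes under an unadjusted p of 0.05 were higher in NB-pregnant heifers. ENSBTAG00000027991 had 65.3 to 83.7 CPM (median 76.7) in AI-pregnant heifers and 93.1, 88.8, 98.6, 87.3 and 78.9 CPM in NB-pregnant heifers of station A. Only the lowest NB-pregnant heifer fell within the AI-pregnant range. The difference of mean log2(CPM + 1), without scaling factors, was 0.28 within the 6 other libraries and 0.24 within the 5 top-heavy ones. With TMM its log2 fold change was 0.39 ± 0.16 (SE), with a quasi-likelihood p of 0.0345 and an adjusted p of 0.999. In station B it was -0.03 ± 0.13, at 89.2 to 114 CPM (median 101) in AI-pregnant and 82.1 to 120 CPM (median 94.4) in non-pregnant heifers.

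ENSBTAG00000019412 had 64.7 to 83.4 CPM (median 71.5) in AI-pregnant heifers of station A and 105, 75.4, 74.5, 116 and 112 CPM in NB-pregnant heifers. The 3 high values belonged to the 3 top-heavy NB-pregnant libraries, and the 2 top-heavy AI-pregnant libraries had 83.4 and 73.9 CPM. The difference of mean log2(CPM + 1), without scaling factors, was 0.49 within the top-heavy libraries and 0.13 within the others. With TMM the log2 fold change was 0.61 ± 0.27 (SE), the largest of the 200, with a quasi-likelihood p of 0.0409 and an adjusted p of 0.999. Without factors the largest log2 fold change of any of the 200 in station A was 0.42. The part of the library kind in this difference was not tested. In station B the gene had 71.6 to 92.0 CPM (median 81.4) in AI-pregnant and 69.4 to 81.1 CPM (median 74.0) in non-pregnant heifers, a log2 fold change of -0.12 ± 0.13.

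The genes of smallest p in the other direction in station A were ENSBTAG00000002240 and ENSBTAG00000031185. ENSBTAG00000002240 had 66.2 to 86.6 CPM (median 73.4) in AI-pregnant heifers and 43.9, 72.7, 71.0, 51.9 and 54.5 CPM in NB-pregnant heifers, a log2 fold change of -0.22 ± 0.15 and an adjusted quasi-likelihood p of 0.999. Again the 3 extreme values were those of the top-heavy libraries, and the 2 other NB-pregnant heifers lay inside the AI-pregnant range. ENSBTAG00000031185 had 19.97 to 32.2 CPM (median 26.5) and 19.9, 24.4, 21.9, 20.7 and 16.2 CPM, a log2 fold change of -0.19 ± 0.18 and the same adjusted p.

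The genes of smallest p in station B were ENSBTAG00000014729 and ENSBTAG00000008939 below 0. ENSBTAG00000014729 had 85.1 to 147 CPM (median 130) in AI-pregnant and 77.7 to 126 CPM (median 102) in non-pregnant heifers, a log2 fold change of -0.31 ± 0.17 with an adjusted quasi-likelihood p of 0.874. ENSBTAG00000008939 had 67.9 to 107 CPM (median 89.9) and 51.1 to 88.0 CPM (median 72.8), a log2 fold change of -0.27 ± 0.16. Above 0 stood ENSBTAG00000015038, with 117 to 182 CPM (median 124) against 131 to 189 CPM (median 150) in non-pregnant heifers and a log2 fold change of 0.24 ± 0.17, and ENSBTAG00000020477 at 0.23 ± 0.18. The groups of all 4 genes overlapped, and all 4 had an adjusted quasi-likelihood p of 0.874. The lowest station B values of ENSBTAG00000014729 were those of the 3 libraries that stood apart. They were 77.7 and 81.9 CPM in non-pregnant heifers 4 and 1, and 85.1 CPM in AI-pregnant heifer 3. In ENSBTAG00000015038 non-pregnant heifers 1 and 4 had the highest values of their group, 189 and 181 CPM. AI-pregnant heifer 3 had the lowest of its group, 117 CPM. The part of the library kind was not tested.

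**Figure D5:**
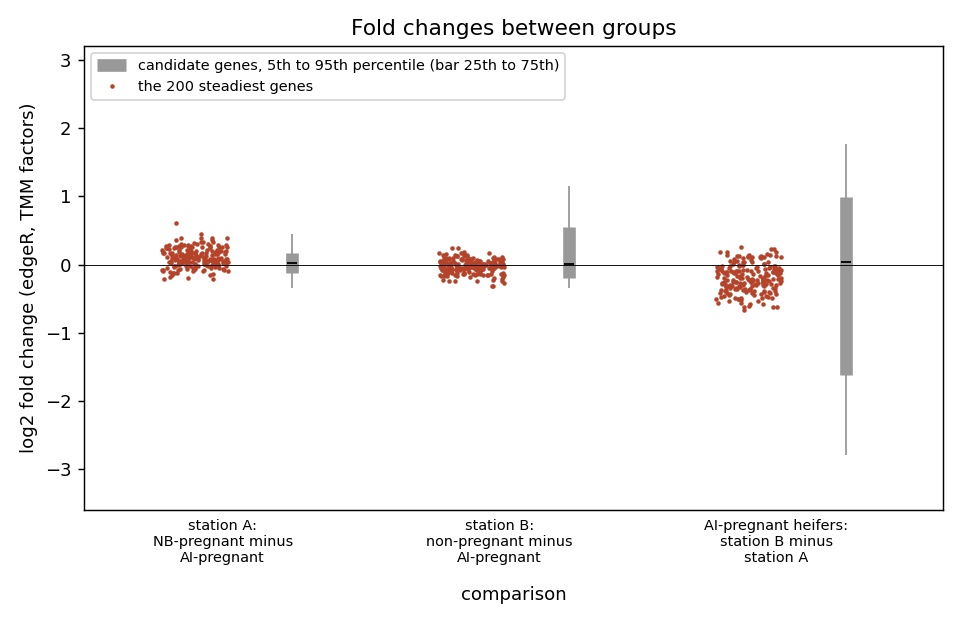
Log2 fold changes (vertical, edgeR with TMM factors) in the 3 comparisons (horizontal), 1 red point per gene of the 200 with random sideways spread, beside the candidates (grey line from the 5th to the 95th percentile, bar from the 25th to the 75th). The 200 genes lie within -0.22 to 0.61, -0.32 to 0.24 and -0.66 to 0.26, and in the station comparison they sit mostly below 0 under this scaling.

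Gene pairs of the kind that the study sought were recounted here from FPKM. A pair was counted where 1 gene was lower than its partner in every heifer of 1 group and in no heifer of the other group, so that a tie in the second group still counted. This readout uses each library's own ratios. In station A 1608 of 12128 genes (13.3%) were in at least 1 of 1521 such pairs, and so were 31 of the 200 (15.5%) and 12.8% of the candidates. ENSBTAG00000019412 was in 7 of them, ENSBTAG00000003959 in 3 and ENSBTAG00000004801 in 2. In station B 150 of 10832 genes (1.38%) were in 88 pairs, with 1 of the 200, ENSBTAG00000002209. A gene of even level can enter such a pair through its partner. The last 3 of these genes were singled out after their values were seen.

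Station B was compared with station A over the AI-pregnant heifers, 6 against 6. The library numbers in the labels fall into separate series by station, so station and library series cannot be told apart. With TMM, 6338 of 10422 genes (60.8%) passed the quasi-likelihood test at an adjusted p of 0.05, and 18 of the 200 (9.0%), all 18 lower in station B by 0.42 to 0.66 on the log2 scale, against 66.1% of the candidates. Nothing is read from the lower count, since a station difference widens the SD that chose the genes. Under TMM 166 of the 200 were below 0 (median -0.21) and without factors 106 were (median -0.03). The median of all 10422 genes moved from -0.07 to 0.08, so most of the lean of the 200 genes moved with the scaling. The number of the 200 called depended on it too, with 3 without factors and 8 with DESeq2's size factors. Over all genes 6218 and 6538 were called at these settings. The groups did not overlap in CPM for 2199 of all genes (21.1%) and for 6 of the 200, 3 of them lower in station B.

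ENSBTAG00000017395 had the smallest p of the 200. The AI-pregnant heifers of station A had 82.8 to 93.3 CPM (median 84.9) and those of station B 55.9 to 76.1 CPM (median 62.4), with no overlap. The log2 fold change was -0.62 ± 0.16 (SE), with an adjusted quasi-likelihood p of 0.00759, and it was called without factors too. The NB-pregnant heifers of station A had 89.9, 81.5, 78.7, 68.4 and 69.2 CPM, and the non-pregnant heifers of station B 48.1 to 93.8 CPM (median 72.2). Their 2 highest values, 93.8 and 79.0 CPM, were those of the libraries that stood apart, non-pregnant heifers 4 and 1.

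ENSBTAG00000012501 was steady within station A and lower in station B. It had 27.0 to 31.3 CPM (median 29.4) in AI-pregnant and 30.6, 29.4, 26.4, 33.5 and 30.0 CPM in NB-pregnant heifers of station A. The AI-pregnant heifers of station B had 18.1 to 24.4 CPM (median 20.6) and the non-pregnant 15.9 to 30.3 CPM (median 23.7). The AI-pregnant groups did not overlap, and the highest AI-pregnant value of station B was that of heifer 3, the library that stood apart. The log2 fold change was -0.66 ± 0.20 (SE) with an adjusted quasi-likelihood p of 0.0132, and it was called without factors too.

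The genes leaning to station B under TMM were not called. ENSBTAG00000018097 had 87.4 to 114 CPM (median 102) in the AI-pregnant heifers of station A and 122 to 154 CPM (median 139) in those of station B, again without overlap. Its log2 fold change was 0.26 ± 0.15 (SE) with TMM, where the adjusted quasi-likelihood p was 0.149, and without factors it was called. ENSBTAG00000027991, described above, followed at 0.22 ± 0.15 with an adjusted p of 0.219. Over all 23 heifers the difference of mean log2(CPM + 1), station B minus station A, ran from -0.39 to 0.42 in the 200 genes with a median of 0.01, 106 were higher in station B, and 0 were without overlap. The candidates had a median absolute difference of 1.20, and 58.5% of them differed by more than 1.

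Which 200 genes are the steadiest depended on how the libraries were scaled. With TMM library sizes 100 of the 200 stayed in the list, and with DESeq2 size factors 87. The pseudocount mattered little, since 199 genes stayed with 0.5 and 188 with 5 in place of 1, and 194 stayed with FPKM in place of CPM. With SDs taken within stations 153 stayed, and without the 3 libraries of station B that stood apart 186. Without the 5 top-heavy libraries of station A 107 stayed. When 1 heifer was left out at a time 184 to 197 stayed, and 173 of the 200 were in all 23 of these lists.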

How the data were processed

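PWBC RNA of 23 heifers was sequenced as stranded, paired 125-nucleotide reads. Per the study's methods, the authors aligned reads to the bovine genome UMD 3.1, removed pairs with several alignments or many mismatches and duplicates, and counted the rest on Ensembl genes with HTSeq; the aligner is not given in the sources used here. The deposited counts are whole numbers without normalization. The deposited FPKM values are those counts divided by gene length and library total, for retained genes, with no log transformation. Retained genes were checked to be those above 1 CPM in 6 or more libraries of a station (12128 and 10832).

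CPM used the totals of the full count tables, 4826003 to 20434401 per library, so 20 CPM rests on 96.5 to 409 read pairs. The 200 genes, the comparisons and the lists were chosen with earlier results of these data known. Station and outcome came from the sample labels; no sample was left out. Each station was fitted apart with edgeR 4.0.16 (TMM, robust quasi-likelihood fit, Benjamini-Hochberg over all genes), beside the rule of the study (edgeR without factors, DESeq2 1.42.0, P of 0.01). R 4.3.3, limma 3.58.1, Python 3.11.15, numpy 2.4.6, pandas 2.3.3, scipy 1.17.1 and matplotlib 3.10.9 were used. The quasi-likelihood fit and the ranking were run on simulated data to check the code. The simulated fold changes were larger than those of the 200 genes, and the simulated SDs lay farther apart than those at the limit. Nothing about the 200 genes is read from these runs. The counting share of a variance is the Poisson variance at the gene's mean CPM over its total variance, and it covers counting error only. Components were computed on centred log2(CPM + 1). Lengths were implied by counts and FPKM. Non-overlap is of CPM.

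Named genes are the 10 of lowest SD, the 3 last inside and 3 first outside the limit, the 3 highest and 3 lowest by mean CPM, and per comparison the 2 of smallest quasi-likelihood P in each direction. Planned lists of reference genes and cell type markers could not be applied, because the identifiers are not paired with names. Alternatives were another pseudocount, TMM, DESeq2 size factors or filtered totals, FPKM, mean CPM from 10 to 400 or unlimited, the median absolute deviation, SDs within stations, other filters, a component covariate, and leaving out libraries.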

Additional observations from a re-analysis of the deposited data

Results flagged for a closer look

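The 23 heifers were searched for 1 value far from the rest of its group, over 124 groups of values (the 30 named genes and the summed share in each of the 4 groups). Chance flags about 1 in 20 groups, and 10 values stood out. In station A, AI-pregnant heifer 4 had 1.67% of its counts in the 200 genes, where the other 5 had 1.51% to 1.56%. The same heifer, a top-heavy library, had 129 CPM of ENSBTAG00000010691 (104 to 112 in the others) and 234 CPM of ENSBTAG00000015034 (180 to 191 in the others). NB-pregnant heifer 4, also top-heavy, had 202 CPM of ENSBTAG00000015034 against 175 to 181 in the others. AI-pregnant heifer 2 had 190 CPM of ENSBTAG00000033983 (137 to 150 in the others) and 156 CPM of ENSBTAG00000025617 (105 to 119 in the others).

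In station B, AI-pregnant heifer 6 had 116 CPM of ENSBTAG00000002697, where the others had 77.8 to 85.4. AI-pregnant heifer 5 had 105 CPM of ENSBTAG00000004571 (85.9 to 90.6 in the others) and 182 CPM of ENSBTAG00000015038 (117 to 135 in the others), and these 2 heifers also had the highest shares of the 200 genes. Non-pregnant heifer 2 had 73.3 CPM of ENSBTAG00000004571 against 82.0 to 86.1 in the others, and it had the lowest share of the 200 genes.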

How the results depend on the processing

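Of the 200 genes, the fewest stayed in the list with TMM library sizes (100), DESeq2 size factors (87), the median absolute deviation in place of the SD (115) and, added after the data were seen, without the 5 top-heavy libraries (107). The other settings, including totals of the filtered tables (198), limits of 10 to 400 CPM (164) and no limits (149), kept 149 to 199, and leaving out 1 heifer kept 184 to 197. The station lists shared 21 genes, 13 without the 3 libraries that stood apart, and the AI-pregnant and other lists, added after the data were seen, 123.

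In the outcome comparisons 0 of the 200 genes were called under the alternatives run, including each heifer left out (0 to 0), with 1 exception: with a covariate for the first principal component the study's rule called 2 in station A (ENSBTAG00000019412 and ENSBTAG00000026266) among 124 genes, against 18 genes in the report. That rule called 11 to 41 genes of all in station A with 1 heifer left out. In station B it called 2 to 16, but 1324 without AI-pregnant heifer 3, with 0 of the 200 among them. With all heifers of station B it called 6 of 10832 genes. Nothing is read from the 0 of the 200 at any setting, since they were chosen for low spread over the same heifers.

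In the station comparison the 18 calls became 3 without factors (ENSBTAG00000012501, ENSBTAG00000017395 and ENSBTAG00000018097), 8 with DESeq2 size factors, 1 with no filter on low counts (ENSBTAG00000018097), 66 over all 23 heifers with station as the only term and, added after the data were seen, 4 with the summed count of the 200 genes as library size (ENSBTAG00000008251, ENSBTAG00000017395, ENSBTAG00000018097 and ENSBTAG00000027991). Over all genes these settings called 6218, 6538, 7647, 7259 and 6072 in that order, against 6338 in the main fit. The setting with no filter tested more genes. DESeq2's Wald test gave 22 of the 200, among 7296 genes called. Leaving out 1 heifer gave 5 to 27, among 5396 to 7815 genes called, the most without station B AI-pregnant heifer 3. The cause of these moves was not tested. No paired analysis was possible because the labels give no replicate numbers that groups share. Depth limits the steadiest genes, in which up to 34.9% of the variance was counting error.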
